A study of Mus musculus with 7 samples.

Results

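The keratin genes were examined in the H3K27-Ac peak lists of 3 skin tumour cell clones. They were taken as the protein-coding genes of GENCODE M21 (build GRCm38) whose symbol is Krt with a number and at most 1 further letter, in the type I cluster on chromosome 11 and in the type II cluster on chromosome 15, where Krt18, a type I gene, also lies. This rule gave 53 of 21938 protein-coding genes, 27 of them in the type I cluster (chr11:99232761-100269871, 1037 kb) and 26 in the type II cluster with Krt18 (chr15:101347444-102032027, 684.6 kb). Krt74, a pseudogene in this annotation, and Krt85, which it does not list under that name, were not included, nor were the genes of keratin-associated proteins (Krtap).

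The cells came from Cdkn2ab-/- mice of an FVB/129P2 backcross, which lack the cell cycle inhibitors p15Ink4b, p16Ink4a and p19Arf, and all 3 clones share this genotype. Each clone derives from a different skin tumour and was picked from soft agar for growth without anchorage, so that a list describes 1 selected clone and not a whole tumour. There was no treatment, no wild-type group and no second condition, and the age of the mice at derivation is not given in the sources used here. H3K27-Ac, an acetyl mark on histone H3 found at active promoters and enhancers, was measured by ChIP-seq. Clones 1 and 2 had a single H3K27-Ac library, clone 3 had 2 that the authors pooled, and 3 IgG control libraries carry the labels of clones 1 and 3.

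Keratins are the intermediate filament proteins of epithelial cells. A type I and a type II chain pair into a filament subunit, and each epithelium uses its own pairs: Krt8 with Krt18 in simple epithelia, Krt5 with Krt14 in the basal layer of the epidermis, Krt1 with Krt10 in the layers above it, and a large set of hair keratins in the follicle. Genes of one type lie side by side in a cluster, apart from Krt18 at the end of the type II cluster, so that the marked stretches of a cluster can be read along the chromosome.

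Clones 1, 2 and 3 had 29182, 49587 and 29277 peaks. For each peak the ChIP reads at its summit, the highest point, were solved from the deposited fold enrichment and p-value, and a whole number of reads was obtained for 100% of peaks in each list (tolerance 0.02 read). The weakest peaks rested on 13, 12 and 25 reads and the median peak on 37, 34 and 53 reads, so that a weaker site is not listed. Reads were compared within a clone, since depth differs between the lists, and the intervals given with them are exact Poisson 95% intervals that cover counting error only. The reads were not split between alleles here.

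The promoters of most keratin genes carried no peak, and the sequences of keratin promoters are described first. RefSeq promoter sequences (GRCm38.p6, from 250 bases before the start to 50 after it) were matched for 36 of the 53 genes. Krt222, Krt33a, Krt35, Krt15, Krt19, Krt16, Krt17, Krt80, Krt87, Krt88, Krt81, Krt86, Krt83, Krt6b, Krt6a, Krt1 and Krt4 were not matched. Among them, Krt80, Krt19, Krt33a and Krt15 had a promoter peak in at least 1 clone. The TATA box letters TATAAA, searched at any position on the strand of the gene, were in 17 of the 36 (47.2%) against 8.88% of all 27025 promoters in the table. They were in 1 of the 3 matched genes with a promoter peak in at least 1 clone and in 16 of the 33 without. These 3 were Krt10, which held the letters, Krt13 and Krt14. No peak overlapped the matched sequence of Krt10. The sequence matched for Krt14 (chr11:100205981-100206280) lies at an internal start (100206030) and not at the outermost start of the gene. The GC box letters GGGCGG, searched on both strands, were in 2 of the 36 (5.56%), against 35.9% of all. The letters TGANTCA of the AP-1 motif, on both strands, were in a single keratin promoter (2.78% against 7.92%), that of Krt13. TGNGGT, which contains the Runx core and other words, was in 52.8% against 45.6%. The median GC content was 48.8% for the keratin promoters and 52.7% for all.

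The 250 bases before the start are printed for 4 genes, with the TATA box, AP-1 and GC box letters in capitals and the rest, TGNGGT included, in lower case: Krt10 and Krt31, which hold TATAAA shortly before the start, Krt13, which holds the AP-1 letters, and Krt7, which holds the GC box letters at 4 places. In the first pair TATAAA begins 26 and 29 bases before the start. Sequences are those of the reference strain, not of the 129P2 or FVB/N alleles of these cells.
Krt10 promoter, chr11:99389365-99389614, minus strand: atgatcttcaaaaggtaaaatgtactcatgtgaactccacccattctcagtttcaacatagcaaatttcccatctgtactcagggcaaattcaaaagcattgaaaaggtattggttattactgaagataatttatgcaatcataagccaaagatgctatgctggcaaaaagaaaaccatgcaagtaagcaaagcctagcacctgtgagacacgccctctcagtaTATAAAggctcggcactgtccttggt
Krt31 promoter, chr11:100050552-100050801, minus strand: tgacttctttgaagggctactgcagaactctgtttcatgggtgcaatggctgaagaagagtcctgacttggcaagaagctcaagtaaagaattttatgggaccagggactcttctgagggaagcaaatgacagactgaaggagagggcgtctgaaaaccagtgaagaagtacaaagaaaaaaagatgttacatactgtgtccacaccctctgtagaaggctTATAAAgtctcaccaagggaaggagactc
Krt13 promoter, chr11:100121567-100121816, minus strand: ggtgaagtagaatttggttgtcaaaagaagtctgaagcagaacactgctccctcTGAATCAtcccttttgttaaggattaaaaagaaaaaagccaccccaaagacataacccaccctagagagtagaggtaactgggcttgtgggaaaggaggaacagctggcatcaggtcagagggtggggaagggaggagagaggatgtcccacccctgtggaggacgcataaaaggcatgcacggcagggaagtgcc
Krt7 promoter, chr15:101412153-101412402, plus strand: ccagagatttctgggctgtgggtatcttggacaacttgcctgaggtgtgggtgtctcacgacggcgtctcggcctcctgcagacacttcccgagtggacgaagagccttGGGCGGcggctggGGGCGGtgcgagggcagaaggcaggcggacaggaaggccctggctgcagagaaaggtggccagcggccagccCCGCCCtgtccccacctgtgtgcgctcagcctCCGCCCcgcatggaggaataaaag

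No peak covered any of these 4 stretches in any clone, and the nearest was a peak of clone 2 that began 0.016 kb downstream of the Krt13 start. A match of letters is a description of the sequence and does not show that a factor binds there.

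Few keratin promoters were marked. A promoter peak, overlapping by at least 1 bp the window of 1 kb on either side of any annotated start, was found for 4 of the 53 keratin genes in clone 1 (7.55%), where 49.8% of all protein-coding genes had one. In clone 2 it was found for 6 (11.3%) against 56.9% of all genes, and in clone 3 for 4 (7.55%) against 48.1%. The mean over clones was 4.67 ± 1.15 keratin genes (SD, n = 3 clones). The genes marked in all 3 clones were Krt80, Krt19 and Krt10, or 5.66% of the keratin genes against 46.5% of all genes, and 46 keratin genes had no promoter peak in any clone. A body peak without a promoter peak, which lies over the gene but outside its promoter windows, was found for 1 keratin gene in each clone (1.89%), against 3.01%, 3.88% and 4.31% of all genes in clones 1, 2 and 3. In total 44 of the 53 genes had neither kind of peak in any clone. A list shows no peak both where few cells of a clone carry the mark and where each carries little of it, and these cannot be told apart.

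In other genes of the filament system the share with a promoter peak was higher than in the keratin genes. Over all protein-coding genes the share was 49.8%, 56.9% and 48.1% in clones 1, 2 and 3. The other intermediate filament genes lay below it in each clone. Of 15 other intermediate filament genes, 5 had a promoter peak in every clone (33.3%): Vim (vimentin, the filament of mesenchymal cells), the lamin genes Lmna, Lmnb1 and Lmnb2 of the nuclear envelope, and Synm (synemin). Vim had 184, 240 and 127 reads in clones 1, 2 and 3, and Lmna had 238, 328 and 210. Of 11 genes for proteins that tie keratin filaments to junctions or to the rest of the cytoskeleton, 7, 8 and 5 had a promoter peak (63.6%, 72.7% and 45.5%), and Plec (plectin), Eppk1 (epiplakin), Dst and Macf1 had one in all 3 clones. Dsp, the desmoplakin gene of the desmosome, had none in any clone, with its nearest peak 53.6, 53.4 and 53.6 kb from the start.

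The markers of epithelial cells were mostly without promoter peaks as well. Of 20 epithelial markers, 4, 8 and 4 had a promoter peak in clones 1, 2 and 3 (20.0%, 40.0% and 20.0%). Over all protein-coding genes the share was 49.8%, 56.9% and 48.1%. The 3 epithelial markers with a promoter peak in all clones were Klf5, Tfap2a and Perp. The defining markers Trp63 (the regulator of stratified epithelia), Cdh1 (E-cadherin) and Epcam had no promoter peak in any clone, and their starts lay 39.7 to 68.3 kb, 8.34 to 15.7 kb and 22.0 kb from the nearest peak. Of 16 fibroblast and mesenchymal markers, 12, 12 and 10 had a promoter peak (75.0%, 75.0% and 62.5%), among them Vim, Twist1, Zeb1 and Prrx1 in all clones. Dcn, Lum and Thy1 of this list had none in any clone, and Col1a1, Col1a2 and Pdgfra had one in clones 1 and 2 but not in clone 3. Of 6 hair germ markers 2, 3 and 2 had one (33.3%, 50.0% and 33.3%), with Cdh3 and Sox9 in every clone. Lhx2 of this list had one in clone 2 only, and Lef1, Lgr5 and Shh had none in any clone. Of 10 endothelial, immune and melanocyte markers 3, 3 and 2 had one (30.0%, 30.0% and 20.0%). Of the melanocyte markers, Mitf and Pmel had one in every clone and Dct and Tyr in none. Cd68 had one in clones 1 and 2, and Ptprc, Lyz2 and the endothelial markers Pecam1, Cdh5 and Kdr had none. The part of the cell type in the keratin result was not tested.

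**Figure D1:**
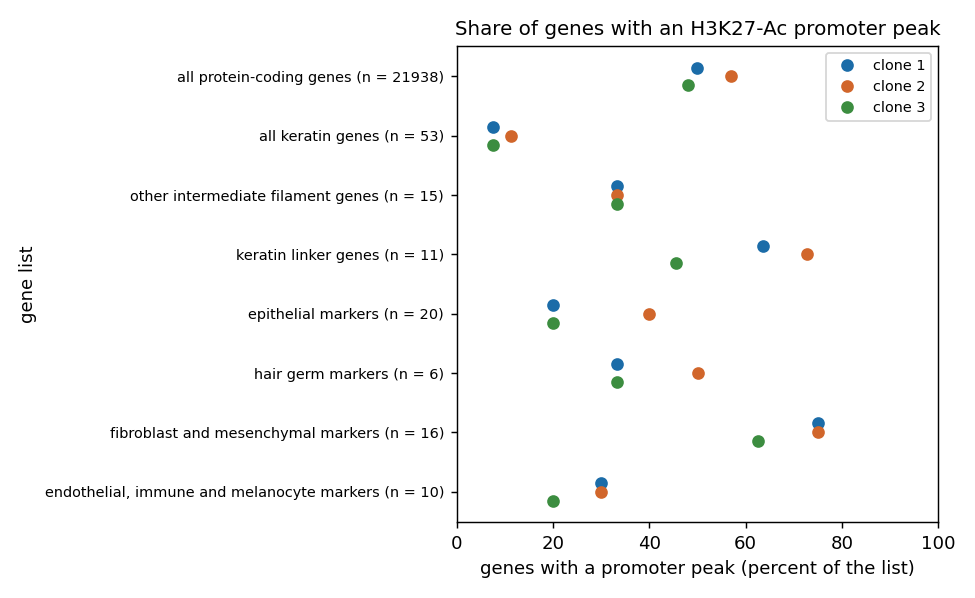
Share of genes with an H3K27-Ac promoter peak (horizontal axis, percent of each list) for all protein-coding genes, the keratin genes and 6 other gene lists, with 1 point per clone. The keratin genes lie between 7.55% and 11.3% and all protein-coding genes between 48.1% and 56.9%.

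Krt80 (ENSMUSG00000037185.9), a type II keratin found in many epithelia and the first gene of its cluster, was the most strongly marked keratin promoter in each clone. Its peak at the outermost start (101370162, minus strand) had 138 reads in clone 1 (interval 116 to 163), 327 in clone 2 (293 to 364) and 163 in clone 3 (139 to 190), with fold enrichments of 26.6, 47.0 and 11.7. Among all genes with a promoter peak, 71.9%, 81.0% and 93.8% had fewer reads, so that Krt80 lay above the median of marked promoters in every clone. The peak was broad, with 3385, 3358 and 3672 bp, and covered the start base in all 3. Clone 2 listed 3 further promoter peaks inside the gene, of 28 to 58 reads, and a body peak of 17 reads.

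Krt19 (ENSMUSG00000020911.14), a type I keratin of simple epithelia and of the hair follicle bulge, had a weak peak in all 3 clones, with 45 reads in clone 1 (interval 32.8 to 60.2), 25 in clone 2 (16.2 to 36.9) and 62 in clone 3 (47.5 to 79.5). These intervals do not reach those of Krt80 in the same clone. The peaks lay 0.131, 0.127 and 0.341 kb from the outermost start (100148665), which belongs to a transcript without a coding sequence, and 1.67, 2.14 and 1.68 kb from the start of the coding transcript (100146120). Only clone 2 had a peak over that coding start, with 21 reads.

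Krt10 (ENSMUSG00000019761.10), the type I keratin of the suprabasal epidermis, was counted as marked in all 3 clones, but its peaks were not at its main start. They had 45 reads in clone 1, 178 in clone 2 (interval 153 to 206) and 61 in clone 3, and lay in the region chr11:99385422-99386865, 2.85, 2.5 and 2.8 kb from the outermost start at 99389364. They overlapped the start of a short second coding transcript (99386097) near the 3' end of the gene, and all 3 summits were in coding sequence. The stretch with the TATA box printed above therefore had no peak. In clone 2, where the peak was highest, 39.8% of marked genes had fewer reads.

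Krt33a, a type I keratin of the hair shaft, showed the same layout in clones 2 and 3, with 34 and 36 reads in coding sequence, at or within 0.031 kb of the start of an internal transcript (100013987) and 1.94 and 1.87 kb from the outermost start. Clone 1 had no peak there. Krt14, the type I keratin of basal cells, was marked in clone 1 only, by 3 peaks of 42, 33 and 19 reads, the highest of which covered the outermost start (100207548). In clones 2 and 3 the peak nearest to that start was 38.9 and 59.2 kb away. Krt15, a keratin of basal cells and the bulge, had a peak of 39 reads in clone 2 only, and Krt13, the type I keratin of the lining of mouth and oesophagus, one of 25 reads in clone 2 only. Each of these counts lies below the median promoter peak of its clone, which had 98, 213 and 83 reads in clones 1, 2 and 3.

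**Figure D2:**
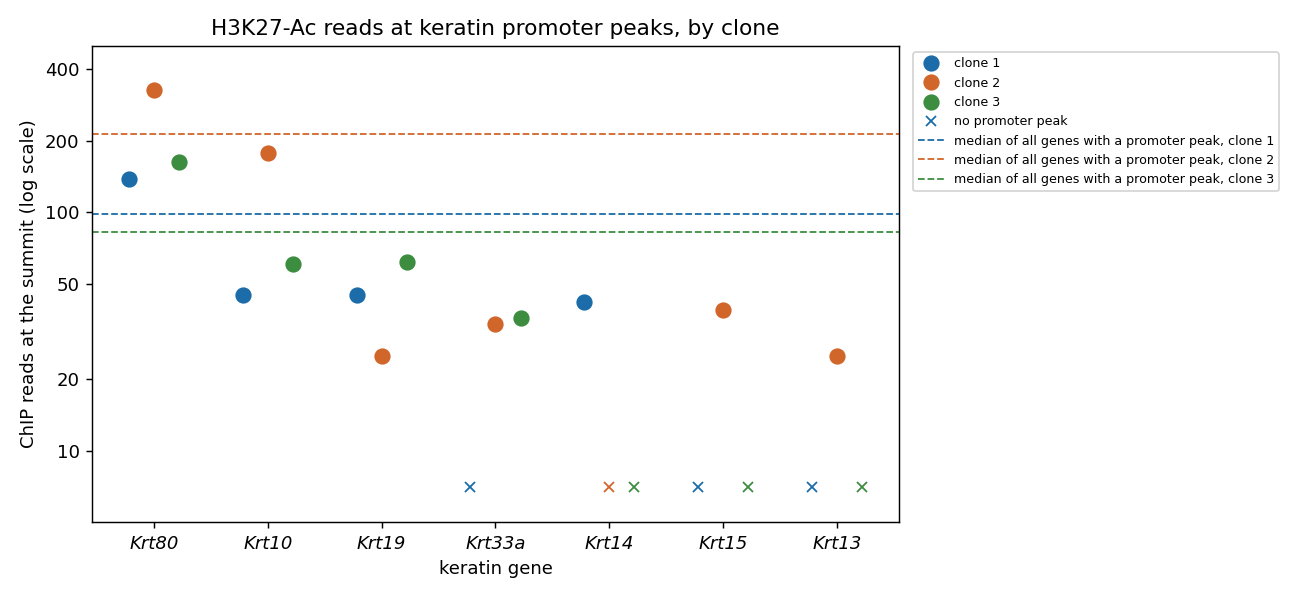
ChIP reads at the highest promoter peak of the 7 keratin genes with one (vertical axis, log scale), with 1 point per clone, a cross where a clone has none, and dashed lines at the median of all genes with a promoter peak. Krt80 lies above the line of its clone in all 3 clones and the other 6 genes below it.

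By class, the simple epithelial keratins had 1 of 6 genes marked in each clone, Krt19. Krt8 and Krt18 had no promoter peak in any clone; the nearest peaks were 1.85, 1.84 and 2.73 kb from the Krt8 start and 11.4 to 12 kb from that of Krt18. Krt7, whose promoter holds the GC boxes shown above, had its nearest peak 28.6, 25.1 and 25.4 kb away. Of the 7 basal and injury-induced keratins, Krt14 and Krt15 were each marked in 1 clone, while Krt5, Krt6a, Krt6b, Krt16 and Krt17 were marked in none. Krt5, the partner of Krt14, had its nearest peak 254, 206 and 264 kb away.

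Of the 5 suprabasal keratins, Krt10 was the one counted, and Krt1, Krt2, Krt9 and Krt77 had no peak. Of the 4 mucosal and corneal keratins, Krt13 was marked in clone 2 and Krt4, Krt12 and Krt76 in none. None of the 8 keratins of the inner root sheath and companion layer (Krt25 to Krt28, Krt71 to Krt73 and Krt75) was marked in any clone. Of the 15 hair shaft keratins, Krt33a was the one with a promoter peak. Krt39 had an intronic peak of 38 reads in clone 3, and Krt81 had a peak across its 3' end in clones 1 and 2, with 25 and 43 reads. Of the 8 genes not placed in a class, Krt80 was marked, and Krt222, Krt24, Krt42, Krt78, Krt79, Krt88 and Krt90 were not.

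The distance from the outermost start to the nearest peak had a median over the 53 genes of 32.2, 25.5 and 36.2 kb in clones 1, 2 and 3, against 4.95, 0.0925 and 6.38 kb over all protein-coding genes. In the type II cluster the median was 77.3, 46.5 and 106.0 kb and in the type I cluster 24.7, 15.7 and 17.6 kb. Neighbouring genes share these distances, since a single stretch without peaks sets the value of many of them.

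**Figure D3:**
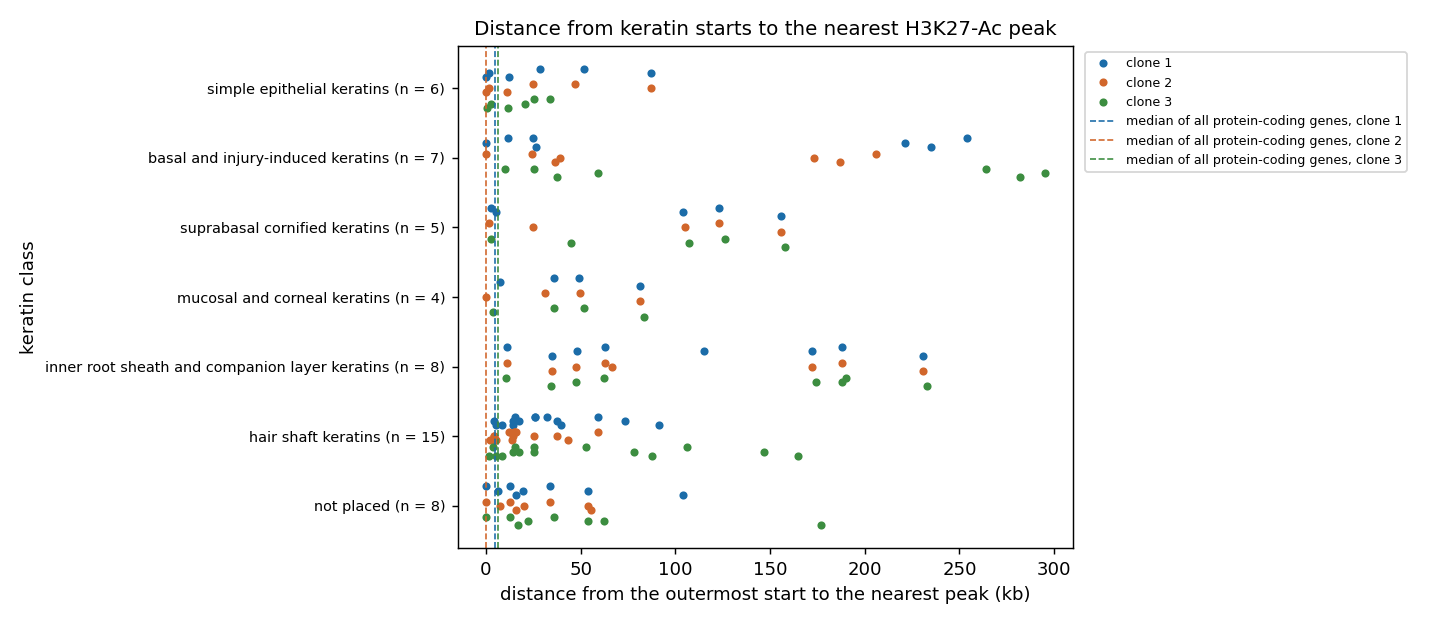
Distance from the outermost start of each keratin gene to the nearest H3K27-Ac peak (horizontal axis, kb), by class, with 1 point per gene and clone and dashed lines at the median of all protein-coding genes. The points beyond 200 kb belong to Krt5, Krt6a, Krt6b and Krt71.

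In the type II cluster the peaks lay on both sides of a long stretch without any. The longest stretch without a peak in any clone ran from 101507281 to 101973977, or 466.7 kb of the 684.6 kb, and held 17 keratin genes whole, from Krt84 to Krt78, among them Krt5, Krt6a, Krt6b, Krt1 and Krt2. In single clones the stretch was 514.7, 467.0 and 590.8 kb with 19, 17 and 23 keratin genes. Long stretches of this kind are common. The autosomes have 865 that are at least as long, which make up 41.4% of their length and hold 14.9% of autosomal protein-coding genes. The cut-off is the length of this stretch itself, so that its 17 keratin genes, or 32.1% of the 53, pass by construction. They are neighbours in a single stretch and not separate cases. Krt6a and Krt6b are near-identical copies, and reads shared by such copies were placed by Bowtie2 under its default settings. Whether such reads were filtered afterwards is not given in the sources used here.

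In the type I cluster the longest stretch without a peak in any clone was 197.8 kb and held no keratin gene, as it lies in the part of the cluster taken up by Krtap genes. In single clones the longest stretch was 397.0, 199.0 and 353.7 kb, and that of clone 1 held 4 keratin genes, Krt33a, Krt33b, Krt34 and Krt31, where those of clones 2 and 3 held none. Krtap genes were taken by symbol, so that other genes inside the cluster with a peak, such as Gm11563, Gm11567 and Gm11568, were not counted among them. Of the 23 genes with a Krtap symbol inside the cluster, 1, 2 and 1 had a promoter peak in clones 1, 2 and 3 (4.35%, 8.7% and 4.35%). Over all protein-coding genes the share was 49.8%, 56.9% and 48.1%. Peaks covered 0.668%, 0.929% and 0.734% of the type I cluster (mean 0.777% ± 0.136, SD, n = 3 clones), against 1.77%, 2.88% and 1.51% of chromosome 11, so that the cluster lay below its chromosome in every clone. They covered 2.38%, 2.59% and 1.2% of the type II cluster (2.06% ± 0.748), against 1.53%, 2.39% and 1.52% of chromosome 15, so that this cluster lay above its chromosome in clones 1 and 2 and below it in clone 3. The local background of the peaks on chromosome 15 was 1.34, 1.33 and 1.39 times that of the autosomes other than 8 and 15, and 1.05, 1.03 and 0.993 times on chromosome 11. The paper reports that the cell lines analysed had gained the FVB/N form of the chromosome carrying the type II cluster. The part of this gain and of the raised background in the values of the type II cluster was not tested. These values are its reads, the number of peaks called and its share under peaks.

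**Figure D4:**
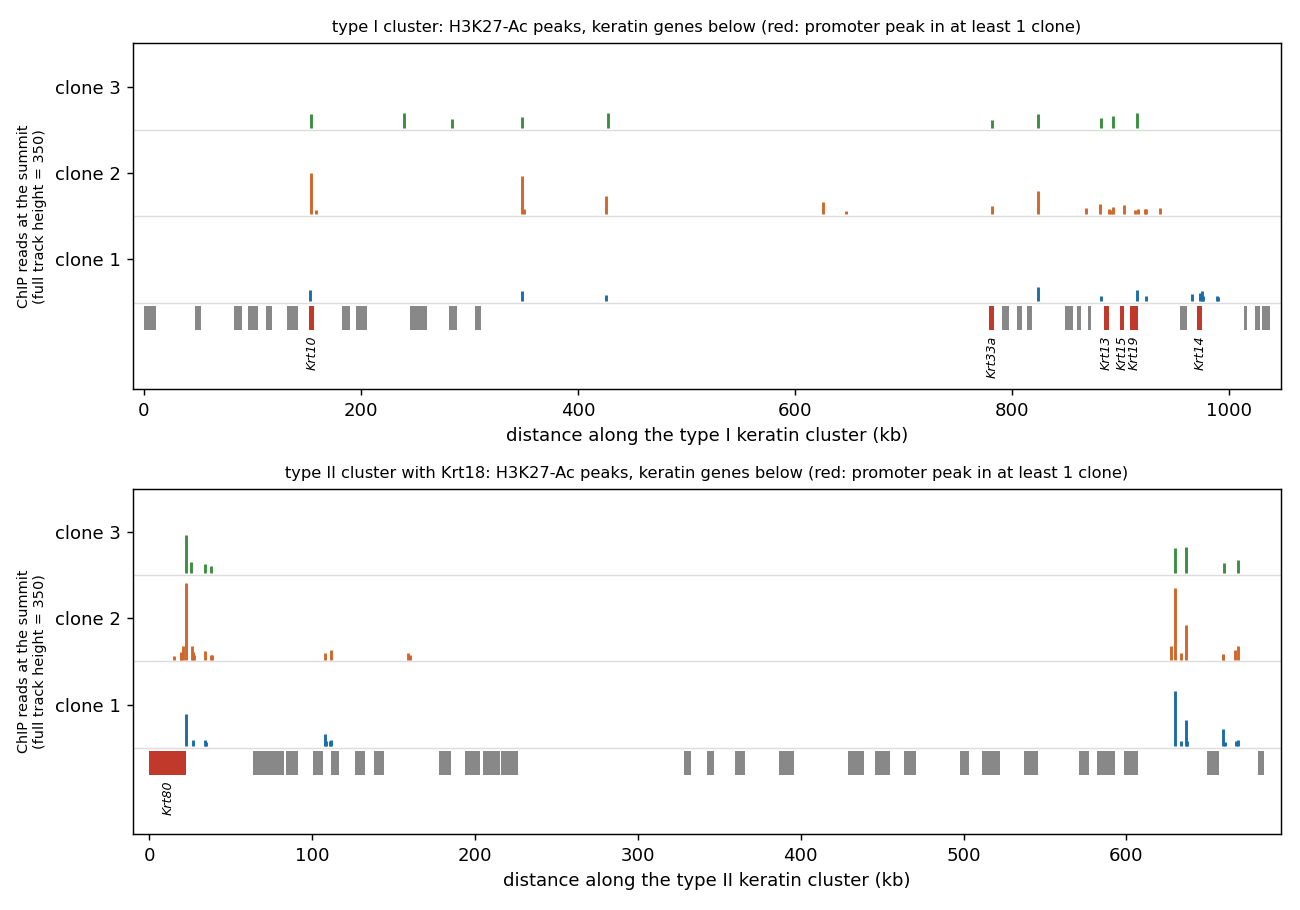
H3K27-Ac peaks of the 3 clones along both keratin clusters (horizontal axis, kb from the first base of the cluster), with the height of a line giving the ChIP reads at the summit and boxes below for the keratin genes, in red where a promoter peak was found in at least 1 clone. In the type II cluster the lines stand on both sides of a stretch of 466.7 kb that carries none.

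Some of the shared marked sites at the far end of the type II cluster lay between genes and others in the lincRNA gene Gm36026. Intergenic peaks, which overlap no annotated gene of any type and no keratin promoter window, numbered 9, 8 and 3 in the type II cluster (6.67 ± 3.21, SD, n = 3 clones) and 5, 8 and 3 in the type I cluster (5.33 ± 2.52). Merged over clones, the peaks inside the type II cluster formed 24 regions, of which 6 were overlapped in all 3 clones, and those in the type I cluster 28, of which 6 were. The shared intergenic regions were 3 in the type II cluster and 1 in the type I cluster, and all 4 are described here.

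The first, chr15:101973978-101978620, lies between Krt78 and Krt8 and, with the Krt80 promoter, was one of the strongest sites of either cluster. It had 236 reads in clone 1 (interval 207 to 268), 307 in clone 2 (274 to 343) and 109 in clone 3 (89.5 to 131), with fold enrichments of 46.1, 58.1 and 10.1. Of all peaks, 98.9%, 94.7% and 88.3% had fewer reads. In clone 1 it exceeded the Krt80 promoter beyond the counting intervals, in clone 3 it lay below it beyond them, and in clone 2 the intervals overlapped. The second, chr15:101983316-101984880, in the same gap between genes, had 110, 149 and 114 reads, with its strongest summits 20.3, 20.2 and 20.3 kb from the Krt8 start. The third, chr15:102015535-102016813, between Krt8 and Krt18, had 26, 58 and 58 reads. The region in the type I cluster, chr11:100113595-100114355, with summits 7.55, 7.72 and 7.42 kb from the Krt13 start, had 20, 45 and 41 reads, and in clone 1 only 10.1% of all peaks had fewer reads than it.

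The 200 bases around the median summit of the 2 regions between Krt78 and Krt8 and of the region near Krt13 are printed below, as the strongest shared intergenic sites of each cluster, on the plus strand of GRCm38. Neither TGANTCA nor GGGCGG occurs in them, so that no letter is in capitals. TGNGGT, left in lower case, occurs at 2 places in the first of them and at 1 in the region near Krt13.
first region between Krt78 and Krt8, chr15:101977058-101977257, plus strand: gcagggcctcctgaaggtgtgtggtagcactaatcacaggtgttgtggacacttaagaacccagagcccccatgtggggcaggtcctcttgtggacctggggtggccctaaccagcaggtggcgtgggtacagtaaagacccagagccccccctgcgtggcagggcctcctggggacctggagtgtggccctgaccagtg
second region between Krt78 and Krt8, chr15:101984083-101984282, plus strand: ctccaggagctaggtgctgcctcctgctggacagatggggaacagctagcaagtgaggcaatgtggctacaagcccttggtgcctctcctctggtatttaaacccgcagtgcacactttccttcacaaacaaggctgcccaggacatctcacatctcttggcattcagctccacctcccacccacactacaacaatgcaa
region near Krt13, chr11:100113919-100114118, plus strand: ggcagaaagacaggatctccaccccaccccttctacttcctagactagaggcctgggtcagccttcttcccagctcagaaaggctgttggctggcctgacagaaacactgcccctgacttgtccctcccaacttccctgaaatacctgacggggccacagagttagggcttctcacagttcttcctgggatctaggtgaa

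These windows had 63.0%, 54.0% and 55.5% GC, and 0.0%, 9.5% and 11.5% of their bases were masked as repeats in the RefSeq genome. The first window repeats parts of itself although none of it was masked, as gcagggcctcct and ccagagcccc each occur in it more than once. Whether reads from such copies add to its peak was not tested. Over all peaks of the clusters that lie outside promoter windows of protein-coding genes, the 300 bases around the summit held TGANTCA in 1 of 21 peaks in clone 1 (4.76%), 6 of 28 in clone 2 (21.4%) and 1 of 12 in clone 3 (8.33%). Over all other such peaks of the genome the share was 9.38%, 11.2% and 11.2%, so that the clusters lay below it in clones 1 and 3 and above it in clone 2.

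Peaks were joined into domains over the gap usual in calling super-enhancers, and the domains were ranked in each clone by the bases under peaks. The largest domain of the type II cluster was the one between Krt78 and Krt8 in clone 1 (101973978 to 101984880, 6544 bases under peaks), which ranked 489 of 14560. In clones 2 and 3 it was the domain at Krt80, with 7587 and 5021 bases and ranks of 872 of 18280 and 552 of 16371. The largest domain of the type I cluster was at Krt14 in clone 1 (2699 bases, rank 2536), from Krt13 to Krt19 in clone 2 (4097 bases, rank 2004) and outside the keratin genes in clone 3 (1562 bases, rank 5985). The mean was 6380 ± 1290 bases in the type II cluster and 2790 ± 1270 in the type I cluster (SD, n = 3 clones). The part of the chromosome gain named above in the larger domains of the type II cluster was not tested.

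Further regions overlapped in all 3 clones lay in other genes inside the clusters, and these genes were chosen with their values in view. Gm36026, a lincRNA gene on the opposite strand whose 5' end overlaps that of Krt8, had a region at chr15:102006319-102007690 with 73, 26 and 45 reads, which holds the peak nearest to Krt8 in each clone. Gm35853, an antisense RNA gene that spans Krt80, had one with 24, 36 and 41 reads. In the type I cluster, Krtap1-5 had 42, 165 and 47 reads, Gm11563 25, 80 and 64, and Gm11571 58, 102 and 61.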

How the data were processed

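H3K27-Ac ChIP-seq peaks of 3 Cdkn2ab-/- tumour cell clones were analysed. Single-end reads had been aligned by the authors with Bowtie2 to GRCm38, and the submitters' processing notes also name MACS2 2.1.1. There was 1 peak list per clone, and that of clone 3 combined its 2 libraries. The peak names carry WASP, a filter for allelic mapping bias, for clones 1 and 2 and not for clone 3. No IgG library labelled clone 2 was used, and the control behind the peak list of that clone could not be checked here. In the deposited lists, fold enrichment is the ratio of (pileup + 1) to (background + 1) where the peak is highest. The authors' −log10 columns hold the p-value and the q-value of that position. The lowest −log10 q was 1.3, 1.33 and 1.35.

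ChIP reads at summits were solved from fold and p, 1 read being worth 0.4236, 0.4282 and 0.3084 control reads in clones 1, 2 and 3. The step was tested on simulated data. Scripts ran in Python 3.11.15 with pandas 2.3.3, numpy 2.4.6 and scipy 1.17.1, and figures were drawn with matplotlib 3.10.9. Genes and starts came from GENCODE M21 and sequences from RefSeq GRCm38.p6, and positions count from 1. Percentages of a chromosome left out its first 3 Mb.

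The members and gene lists were chosen with earlier results of these data known. Keratin genes with a promoter peak in at least 1 clone, and body or intergenic regions overlapped in all 3 clones, were named with their values. With 1 condition and 3 clones no test was made, and the spread is the SD over clones. The number of clones and, as no weaker site is listed, the depth limit the precision. Alternatives were other promoter windows and starts, a −log10 q of at least 5, equal numbers of peaks, other joining distances and cluster ends, and leaving out each clone.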

Additional observations from a re-analysis of the deposited data

How the results depend on the processing

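There were 65 alternatives to 9 results. A count was taken as unchanged within 1.5 times, and any other value within 1 SD of the clones. Of the 38 alternatives that kept all clones, 31 left the result unchanged. All 27 that left out a clone did so too. For values judged by SD this was fixed in advance, since leaving out 1 of 3 clones cannot move their mean by 1 SD. With the outermost start of each gene only, the mean number of keratin genes with a promoter peak went from 4.67 to 3.0 and that of genes with a body peak alone from 1.0 to 2.67, because the peaks of Krt10 and Krt33a lie at internal starts. With peaks that cover a start base, body peaks alone rose to 2.33, as promoter peaks beside a start then count as body peaks. At a −log10 q of at least 5 the intergenic peaks of the type I cluster went from 5.33 to 2.67, its share under peaks from 0.777% to 0.584% and the largest domain of the type II cluster from 6380 to 5070 bases, since fewer peaks are then used. With 20 kb added to its ends the type I cluster had 1.24% under peaks, as the added stretch holds the peaks of Smarce1 and Gm14206.

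Krt80 had a promoter peak in all 3 clones under each of these alternatives, and 2 to 4 keratin genes had one in all clones used. Krt19 lost this with equal numbers of peaks per clone and when a start base had to be covered. Under both of these settings Krt13 had no promoter peak in any clone. With a window of 2.5 kb Krt8 was counted in clones 1 and 2. Leaving out each clone gave 4.0 to 5.0 keratin genes with a promoter peak, 4.0 to 6.5 and 5.5 to 8.5 intergenic peaks in the type I and type II clusters, and 0.701% to 0.831% and 1.79% to 2.49% of them under peaks. Depth limits what a missing peak shows, as no peak under 13, 12 and 25 reads is listed. No paired analysis was possible because the study has 1 condition and no peak list of the IgG libraries was used.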

Other observations

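Beside the end of the type I cluster, all 3 clones had a broad peak over Gm14206, 18.8 to 18.9 kb from the Krt42 start and outside the stretch counted above. It had 200, 146 and 186 reads in clones 1, 2 and 3, with fold enrichments of 48.0, 34.7 and 14.6, which is more reads than any peak inside the type I cluster had in clones 1 and 3. In clone 2 the peak at Krt10 had 178. The gene was named after its value was seen.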
